A study of Sus scrofa with 9 samples.

Results

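In cultured porcine valvular interstitial cells (PVICs), 141 of the 13662 genes tested (1.03%) followed a there-and-back pattern: osteogenic induction medium (OIM) moved them away from the control level, and basic fibroblast growth factor (bFGF) added to OIM moved them the other way. Of these, 101 genes were higher in OIM than in control and lower in bFGF than in OIM (OIM-high genes), and 40 were lower in OIM and higher in bFGF (OIM-low genes). A gene was chosen when its mean in at least 1 group was 1 CPM or more, its OIM mean was at least 1.4 times the control mean with every OIM library above every control library, and its OIM mean was also at least 1.4 times the bFGF mean with every bFGF library below every OIM library, or when the mirror image of both limits held. CPM is the count of a gene scaled to a common library total, here after the trimmed mean of M-values (TMM) scaling of edgeR. The genes were chosen by these measured values, so the changes from control to OIM and from OIM to bFGF are given below as description, without a test. The difference between bFGF and control was no part of the rule and was tested, although its libraries entered the rule.

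PVICs came from the aortic valves of pigs aged 4 to 5 months. The control group (NC in the labels) was kept in DMEM, the OIM group in a medium supplemented with ascorbic acid (50 µg/mL), insulin and, as a phosphate source, sodium dihydrogen phosphate (2 mmol/L), and the bFGF group in the same OIM with 50 ng/mL bFGF. RNA was sequenced in 3 libraries per group, after 3 days by the labels and after a shorter time by the methods of the study. No group received bFGF without OIM, so the effect of bFGF on its own cannot be told apart from its effect on OIM-treated cells. The labels do not say whether the replicates were separate animals or cultures, so p-values measure only the spread between these libraries, which may be technical.

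Valvular interstitial cells are the fibroblast-like cells that build and maintain the valve leaflet. They can take on a contractile, myofibroblast-like state with actin stress fibres and can also turn towards bone-like states that deposit mineral. Transforming growth factor beta, bone morphogenetic protein (BMP) and Wnt ligands, with their secreted antagonists, act on both states, and bFGF signals through FGF receptors and the ERK pathway, which is known to oppose contractile gene expression in smooth muscle and fibroblasts.

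The libraries held 46773376 to 67371523 gene counts, with the lowest totals in the bFGF group. Summed markers of valve interstitial cells, such as VIM, COL1A1 and DCN, ranged from 64870 to 70270 CPM in control, 61460 to 64370 in OIM and 37600 to 37960 in bFGF. Its 10 members did not share 1 direction. COL1A1, for example, had 25370 to 28990 CPM in control and 9735 to 10140 in bFGF, whereas VIM had 6129 to 6332 and 8908 to 9069, and S100A4 had 51.5 to 52.5 and 112.9 to 118.6. Markers of skeletal muscle and lymphocytes were near 0, with MYOD1, MYOG, MYF5, CD3E and MS4A1 at 3 counts or fewer in every library. Endothelial markers summed to 73.3 to 75.8 CPM in control, 87.9 to 89.6 in OIM and 170.5 to 180.1 in bFGF. All 10 exceeded 3 counts in at least 1 library, but several were near the floor. KDR was 0 in OIM replicate 1, and CLDN5 was 0.015 CPM in OIM replicate 2. The 10 did not share 1 direction. VWF had 0.422 to 0.586 CPM in control and 0.115 to 0.288 in bFGF, and TIE1 overlapped, at 1.449 to 2.31 and 1.595 to 2.331. Smooth muscle or myofibroblast markers summed to 9906 to 10420 CPM in control, 10160 to 13450 in OIM and 1636 to 1819 in bFGF, with MYH11 both a marker and an OIM-high gene. The part of cell makeup in the results was not tested, and in these bulk samples fewer cells of a type and less RNA per cell cannot be told apart.

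OIM replicate 2 stood apart from the other OIM libraries. It was the lowest OIM library for 78 of the 101 OIM-high genes and the highest for 7. The median OIM-high gene lay 0.53 above its control mean on the log2 scale in OIM replicate 2, against 0.81 in both other OIM libraries. The OIM-low genes showed the same smaller shift in that library, with a median of -0.54 against -0.77 and -0.75. Without OIM replicate 2 the same limits picked 154 OIM-high and 89 OIM-low genes, which kept 99 of the 101 and all 40, although groups of 2 libraries are separated more easily than groups of 3. Leaving out OIM replicate 1 or 3 in its place, which also leaves 2 libraries, gave 95 and 99 OIM-high and 40 and 49 OIM-low genes.

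The counts behind the rule were as follows. Of the 260 genes that met the OIM limits upwards, 38.9% also met the bFGF limits downwards. Of the 192 genes that met the OIM limits downwards, 20.8% met the bFGF limits upwards. Over all genes tested, the bFGF limits were met by 2367 genes downwards (17.3%) and 2355 upwards (17.2%), and the 20.8% is near the latter. Both sets of limits use the same OIM libraries, so nothing is read from these overlaps beyond the counts. The median OIM-high gene was 1.64-fold higher in OIM than in control (1.75-fold without OIM replicate 2) and 3.56-fold higher in OIM than in bFGF. The median OIM-low gene was 1.58-fold lower in OIM than in control and 2.42-fold lower in OIM than in bFGF. These medians describe genes that had to pass the limits.

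**Figure D1:**
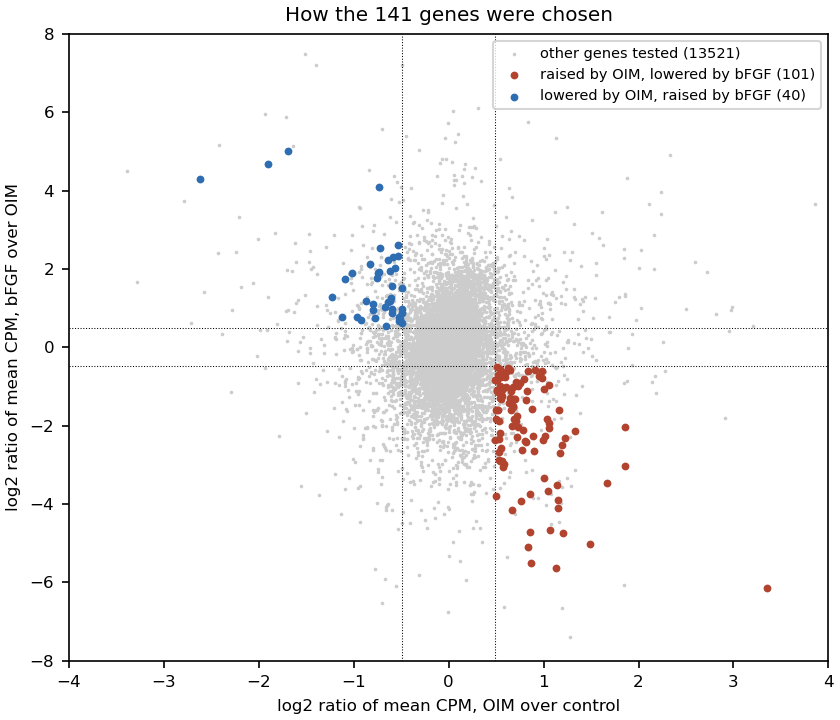
Each point is 1 of the 13662 genes tested, with the log2 ratio of mean CPM in OIM over control on the x axis and in bFGF over OIM on the y axis. Dotted lines mark the ratio limits, and coloured points mark the 101 OIM-high and 40 OIM-low genes, while grey points past both limits had overlapping libraries or no group mean of 1 CPM, and 17 genes outside the axes or without a ratio are not shown.

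Most of these genes were weakly expressed. Mean CPM over all libraries had a median of 6.65 in the OIM-high genes and 2.69 in the OIM-low genes, against 21.2 over all genes tested. It was under 5 CPM for 48 OIM-high and 25 OIM-low genes and over 100 CPM for 6 and 2. At the edge of the upper class, FAP (1.401) and RASL11A (1.41) passed the OIM over control limit. CNN1 (1.393), C4H1orf226 (1.391) and TGFB3 (1.388) just missed it. At the edge of the lower class, SHANK1 (0.7138), CTNNAL1 (0.7117) and RAD51B (0.7114) passed the same ratio, whereas TTC8 and TNFAIP8 missed the class, the first with a bFGF over OIM ratio of 1.397 and the second on both limits, with an OIM over control ratio of 0.719 and a bFGF over OIM ratio of 1.393.

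In most of these genes the bFGF level lay past the control level and not at it. The rule selected on the bFGF and control libraries, so the counts below describe where the chosen genes lay, and an excess over the share of all genes is no evidence about them. With edgeR (quasi-likelihood test, p-values adjusted by Benjamini-Hochberg over all genes tested), a gene was called when its adjusted p was at most 0.05 and its log2 fold change at least 0.5 in size. Of the 101 OIM-high genes, 67 were called lower in bFGF than in control (66.3%), where the share over all genes tested was 20.0%. Among the 2266 genes that met only the downward bFGF limits, 89.8% were called lower than control and 0 higher. The selection thus left little room for a call above control, and 0 of the 101 had one (18.9% of all genes), with 2 higher at an unadjusted p under 0.05. DESeq2 gave the same counts of 67 and 0. The median log2 fold change of bFGF minus control was -1.01 over the OIM-high genes and -0.016 over all genes tested, and 93 of the 101 were negative. In 74 of the 101 every bFGF library lay below every control library (background 37.3%), in 2 every one lay above, and in 25 the groups overlapped.

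The OIM-low genes had the opposite direction. Of the 40, 22 were called higher in bFGF than in control (55%, background 18.9%). Of the 2315 genes that met only the upward bFGF limits, 90.2% were called higher than control and 0 lower, so a call below control was likewise hardly possible. The count of such calls was 0 of 40, with 1 lower at an unadjusted p under 0.05, and DESeq2 again gave 22 and 0. Their median log2 fold change of bFGF minus control was 0.61, and 35 of the 40 were positive. All bFGF libraries lay above all control libraries in 29 of the 40 (background 36.4%). The median over the genes that met only the downward bFGF limits was -0.96, and over those that met only the upward ones 0.97.

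The 95% interval of the bFGF minus control difference separated the genes that were not called. An interval wholly within 0.5 of 0 on the log2 scale, with no call, was found for 14 OIM-high and 6 OIM-low genes (background 38.3%), and these are described as back near control. For 20 OIM-high and 12 OIM-low genes the interval neither met a call nor stayed within 0.5, so whether they passed 0.5 was undecided. Of these, 3 OIM-high and 4 OIM-low genes had an interval that excluded 0 and so a clear side, and for the other 17 and 8 the side was undecided too. A control mean under 5 CPM was found in 18 of the 20 undecided OIM-high genes against 27 of the 67 called, but in 7 of the 12 undecided OIM-low genes against 17 of the 22 called. As a percentage of the log2 shift that OIM had made, bFGF removed a median of 220.8% in the OIM-high genes (61.3% to 765.2%) and 185% in the OIM-low genes (69.5% to 554.2%). A value of 100% would mean a return to the control mean.

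**Figure D2:**
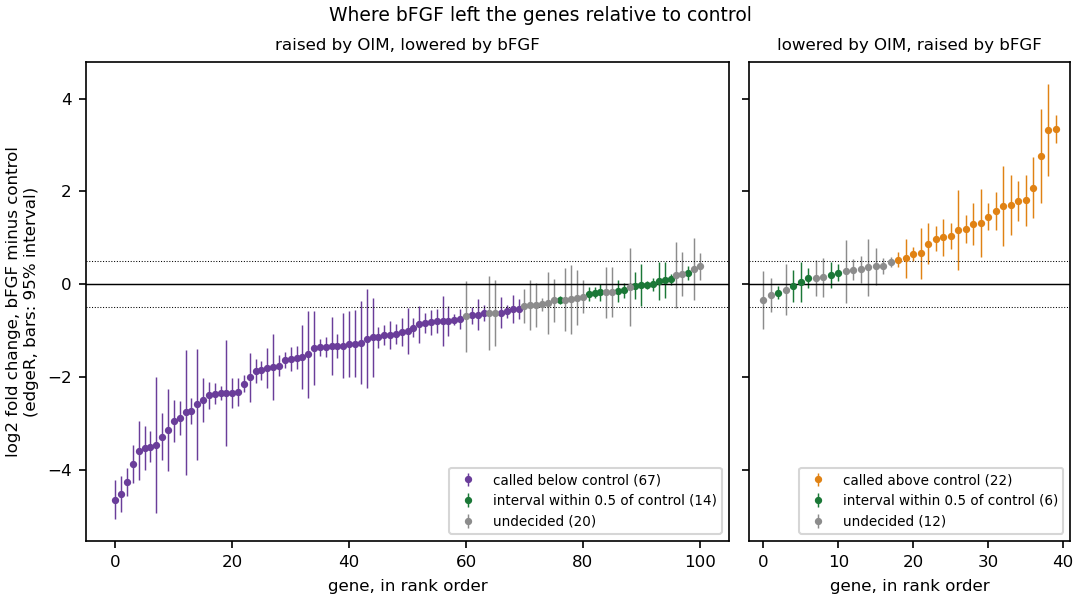
The log2 fold change of bFGF minus control is plotted for each OIM-high gene (left) and OIM-low gene (right) in rank order, with 95% intervals from edgeR, and dotted lines at 0.5 and -0.5. On the left 67 genes lie below control, 14 within 0.5 of it and 20 are undecided, and on the right 22 lie above, 6 within 0.5 and 12 are undecided.

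**Figure D3:**
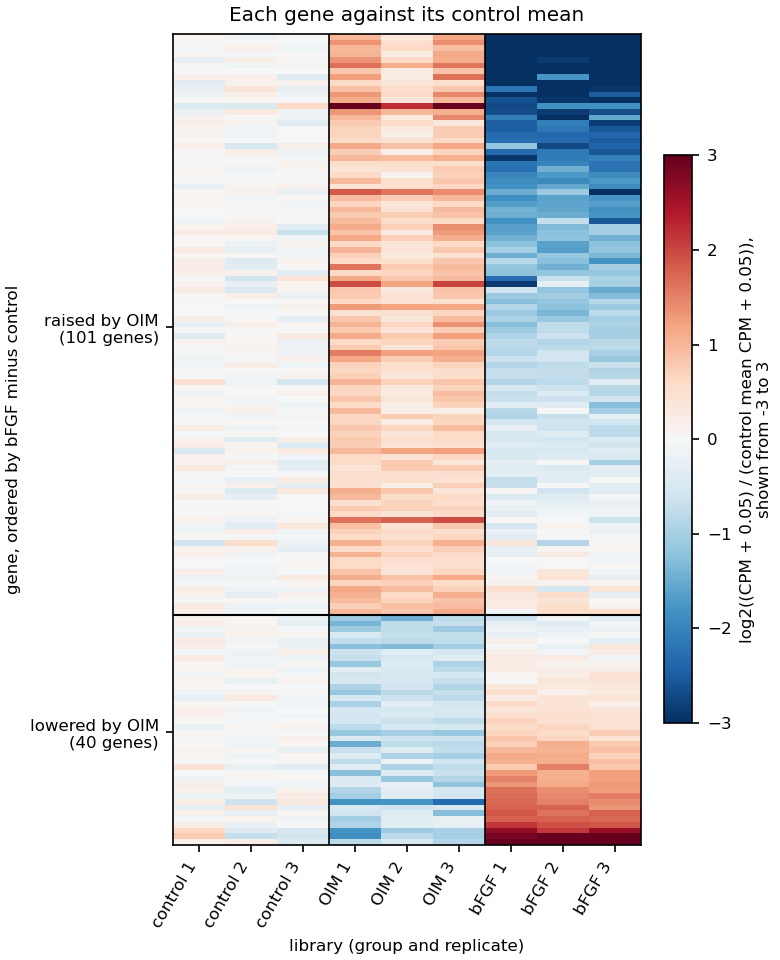
Each row is a gene and each column a library, coloured by log2 of (CPM + 0.05) over (control mean CPM + 0.05), limited to the range from -3 to 3. OIM replicate 2 is paler than the other OIM columns, and the bFGF columns pass through the control colour to the opposite side for most rows.

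The 2 OIM-high genes furthest below control in bFGF were contractile genes. The 3 members of the smooth muscle and sarcomere list among the OIM-high genes were DES, MYH11 and ACTG2 (8.33% of its 36 genes tested, against 1.03% of all genes tested). DES encodes desmin, the intermediate filament of muscle, on chromosome 15 from 121428539 to 121435426 of Sscrofa11.1. It measured 0.294, 0.28 and 0.619 CPM in control, 4.91, 2.04 and 5.22 in OIM, and 0.0186, 0.0769 and 0.0769 in bFGF. The groups did not overlap, and the mean was 10.2-fold higher in OIM than in control, the largest such ratio of the OIM-high genes, while the bFGF values rest on 1, 4 and 4 counts. Its log2 fold change of bFGF minus control was -2.76 (SE 0.64, adjusted p = 0.000773).

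MYH11, the smooth muscle myosin heavy chain, lies on chromosome 3 from 7002667 to 7143093. It measured 132, 128 and 126 CPM in control, 325, 182 and 337 in OIM, and 5.05, 6.42 and 5.41 in bFGF. OIM replicate 2 sat closer to control than to the other OIM libraries, and all bFGF libraries sat far below both groups. The OIM over control fold was 2.19, or 2.57 without OIM replicate 2, and the log2 fold change of bFGF minus control was -4.51 (SE 0.18, adjusted p = 1.83e-14). ACTG2, the enteric smooth muscle actin, had 33.2, 29.4 and 32.3 CPM in control, 63.5, 39.2 and 70.5 in OIM, and 1.55, 1.17 and 1.08 in bFGF. Its log2 fold change against control, -4.64 (SE 0.20, adjusted p = 5.35e-14), was the lowest of the OIM-high genes. Actin genes are near-identical in coding sequence, so reads could have been shared between ACTG2 and its paralogs, and an antisense locus overlaps MYH11, which matters if the counting ignored strand.

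The list as a whole was lower with bFGF. Of its 36 genes tested, 32 were called below control in bFGF (background 20.0%) and 1 above it (background 18.9%), with a median log2 fold change of -1.88, against -0.016 over all genes. Between OIM and control, the contrast the rule used, 7 of the 36, the 3 members included, were called higher (background 1.49%) and none lower (background 0.864%), from which nothing is read, and the median OIM minus control difference was 0.21. ACTA2, the smooth muscle actin of myofibroblasts, had means of 6787 CPM in control, 8449 in OIM and 738.3 in bFGF, so it missed the OIM limit. ACTA1, LDB3, CASQ2, XIRP1 and MYOCD passed both ratio limits but not the rule on overlap. ACTA1, for example, had 8.34, 2.43 and 8.6 CPM in OIM, where replicate 2 fell among the control values of 2.94, 2.24 and 2.8. MYOCD, a coactivator of serum response factor, SRF itself and ACTC1 were not called against control. The gene called above control was MYOM1, a protein of the sarcomere M-band, whose mean went from 18.6 CPM in control to 38.5 in OIM and 83.8 in bFGF, up in both steps.

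**Figure D4:**
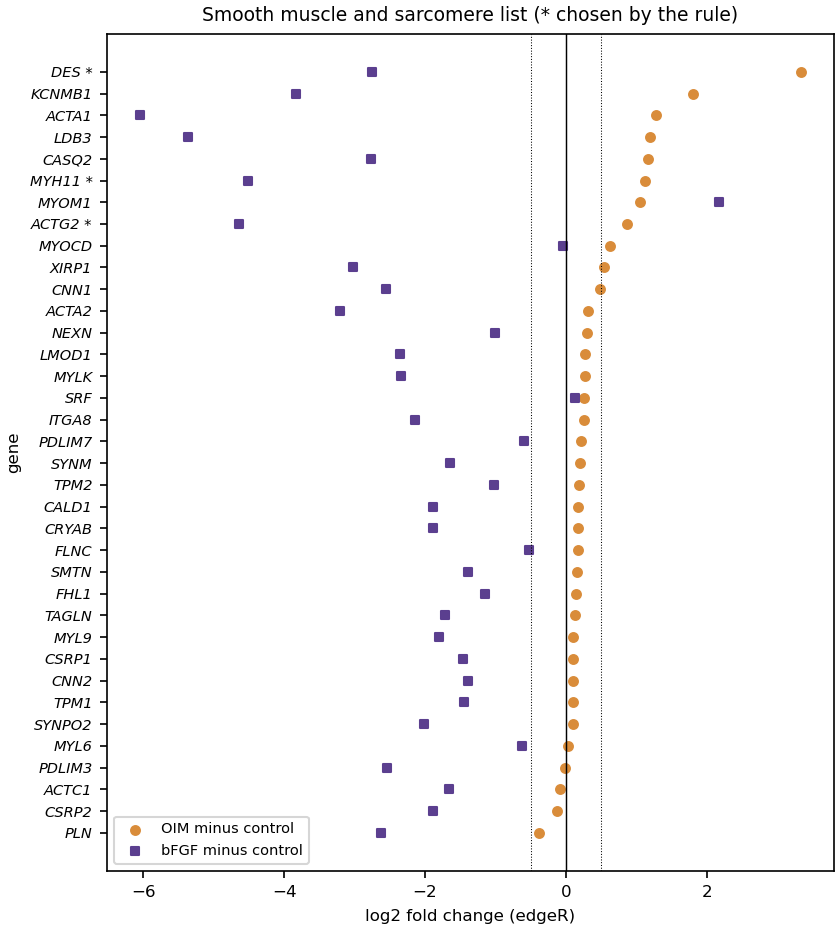
For each of the 36 genes of the smooth muscle and sarcomere list, circles give the log2 fold change of OIM minus control and squares that of bFGF minus control, both from edgeR, with an asterisk at the 3 genes the rule picked and dotted lines at 0.5 and -0.5. Circles lie near 0 for most genes, whereas squares lie below -0.5 for all but MYOCD, SRF and MYOM1.

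Further OIM-high genes with known roles in muscle, grouped after their values were seen, showed the same order of groups. HSPB7, a small heat shock protein of heart and muscle, had 7.69, 6.85 and 7.85 CPM in control, 23.7, 16.3 and 22.7 in OIM, and 0.28, 0.788 and 0.866 in bFGF. All 3 groups were separate, and bFGF lay at a log2 fold change of -3.54 from control (SE 0.23, adjusted p = 2.4e-11). ITGA7, the laminin receptor subunit of muscle, had 12.9, 15.8 and 13 CPM in control, 34.4, 20.7 and 37.8 in OIM, and 1.44, 1.54 and 2.46 in bFGF. It was also called below control, at -2.94 (SE 0.21). UNC45B, a myosin chaperone, measured 0.661, 0.66 and 0.435 CPM in control, 1.44, 0.691 and 1.93 in OIM, and 0.0186, 0.135 and 0 in bFGF, the latter from 1, 7 and 0 counts.

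POPDC2 and RYR2, a membrane protein and a calcium release channel of heart muscle, were called below control by smaller margins of -1.26 and -0.54. RYR2 is also on the cardiomyocyte marker list, whose sum was 7.65 to 9.17 CPM in control, 11.0 to 13.9 in OIM and 6.57 to 8.47 in bFGF, with TNNT2, NPPA and MYL7 at 3 counts or fewer in every library. RYR2 itself made up 5.2 to 6.51 CPM of that sum in control, 9.04 to 11.15 in OIM and 3.29 to 4.81 in bFGF, and the other 6 markers in the table summed to 2.09 to 2.66 CPM in control, 1.95 to 3.39 in OIM and 2.83 to 3.73 in bFGF. SORBS2, an adaptor at actin attachment sites, was at -0.84 relative to control, and LMCD1, a LIM-domain cofactor, at -0.82. PCP4, a small calmodulin-binding protein, differed from these. It measured 0.991, 0.808 and 0.971 CPM in control, 2.97, 3.28 and 3.76 in OIM, and 0.97, 0.903 and 0.577 in bFGF, so OIM replicate 2 was not its lowest OIM library. Its bFGF minus control difference was -0.17, with an interval from -0.72 to 0.38.

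The promoter windows of the OIM-high genes were searched for the CArG box, the element bound by serum response factor in many contractile genes (CC, 6 bases of A or T, GG, which reads the same on both strands). The window ran from 250 bases before to 50 after each annotated start in RefSeq annotation release 106 of Sscrofa11.1, and 138 of the 141 genes could be placed. A CArG box was present in 4 of 99 OIM-high windows (4.04%), 0 of 39 OIM-low windows and 1.37% of all 13611 windows. The 4 are shown because they are the matches of that search, with the box in capitals and the strand of the gene read 5′ to 3′.
UNC45B, 59 bases before its start (chr12:40031408-40031437, minus strand): gcccctatggCCAAATATGGtctggagcca
ADGRF2, 133 bases before its start (chr7:42357041-42357070, plus strand): ggatctcttgCCAAAAATGGgaagcctggg
ZBED2, 129 bases before its start (chr13:148156371-148156400, plus strand): cagcttccaaCCAAAAATGGagattcacag
CXADR, 247 bases before its start (chr13:182134166-182134195, plus strand): actCCTAATAAGGaactcttggaaacacta

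Of these, UNC45B is the muscle gene described above, and no match was found in the windows of DES, MYH11 or ACTG2. The adhesion receptor gene ADGRF2 went from 0.605, 0.544 and 0.486 CPM in control to 1.14, 0.675 and 1.56 in OIM and 0.0932, 0.0192 and 0.154 in bFGF. The other two, ZBED2 and CXADR, lay at log2 fold changes of -1.01 and -0.47 from control in bFGF. The TEAD element CATTCC (either strand) was found in 17 of 99 OIM-high windows (17.2%) and 4 of 39 OIM-low windows (10.3%), against 1506 of all 13611 windows. An ETS element, ACTTCCGG or its complement, was in 0 of 99 and 1 of 39 windows (2.56%), against 6.42% of all. E-boxes with CACGTG were in 5.05% and 5.13%, against 9.17%. Of the other 5 motifs searched on both strands, the AP-1 element TGANTCA was in 5.05% of OIM-high and 10.3% of OIM-low windows, against 4.83% of all. The TATA box, TATAAA, was in 11 of 99 and 6 of 39 windows, against 7.98% of all. The RUNX element TGTGGT was in 13.1% and 10.3% (13% of all), the forkhead element GTAAACA in 2.02% and 2.56% (2.5% of all), and the SMAD element GTCTAGAC in 0% and 0% (0.176% of all). A match describes letters in a window and not a bound site.

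Some matrix genes were OIM-high, while ECM1 and MMP3, described below, were OIM-low. Those outside the list of matrix structural genes were put together by role after their values were seen. ELN, which encodes elastin, the elastic fibre of the leaflet, lies on chromosome 3 from 11214194 to 11245891. It measured 116, 118 and 106 CPM in control, 254, 185 and 240 in OIM, and 41.6, 49.5 and 41.8 in bFGF. The groups were separate, and bFGF was below control by a log2 fold change of -1.36 (SE 0.09, adjusted p = 3.33e-11). ACAN, the large cartilage proteoglycan aggrecan, measured 32.5, 34 and 31.3 CPM in control, 65.4, 43.9 and 63.3 in OIM, and 12.1, 11 and 9 in bFGF. It too was called below control, at -1.61 (SE 0.12, adjusted p = 3.57e-10). These were the members among 43 matrix structural genes tested (4.65%, against 1.03% of all genes tested). Of the 43, bFGF had 31 called below control (background 20.0%) and 3 above it (background 18.9%).

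Outside that list, MFAP2, a microfibril protein that associates with elastin fibres, behaved differently from ELN. It had 28.4, 30.8 and 30.1 CPM in control, 57.6, 48 and 54 in OIM, and 36.3, 38.3 and 30.9 in bFGF. Its bFGF libraries all lay above the control libraries, by 0.24 on the log2 scale with an interval from 0.08 to 0.40, so it stayed within 0.5 of control. FBLN7, a fibulin, and FNDC1, a fibronectin-domain protein, were called below control at -1.14 and -0.94, and SPARCL1, a matricellular protein, at -3.50 (SE 0.16, adjusted p = 9.08e-14). MATN3, the cartilage protein matrilin 3, was lower in abundance, from 0.402 to 0.577 CPM in control, and was called below control at -1.51 (SE 0.45, adjusted p = 0.00552).

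The CCN family contributed NOV (CCN3) and WISP1 (CCN4), secreted matrix-associated regulators. NOV measured 133, 120 and 126 CPM in control, 226, 163 and 224 in OIM, and 78.9, 82.8 and 85.4 in bFGF. The gap from control was smaller than in the contractile genes, with log2 fold changes of -0.62 for NOV and -0.65 for WISP1. Among cell-surface and secreted proteases, ADAM19, at 175 to 187 CPM in control and 213 to 284 in OIM, was called below control at -0.59, and MMP17 and MMP28 at -2.49 and -1.38. FAP, the fibroblast activation protease, was the tightest of these. Its libraries spanned 96 to 97.1 CPM in control, 134 to 137 in OIM and 75 to 76.9 in bFGF, and its difference of -0.34 from control (interval -0.42 to -0.26) was clear but smaller than the 0.5 set for a call. By contrast, MMP3, stromelysin 1, was an OIM-low gene, with 2.04, 1.77 and 2.03 CPM in control, 0.664, 1.12 and 1.1 in OIM, and 3.21, 4.11 and 3.37 in bFGF.

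BMP and growth differentiation factor ligands were found in both classes. BMP2, a potent inducer of bone formation, was an OIM-low gene on chromosome 17 from 15750487 to 15762982. It measured 6.2, 6.91 and 6.36 CPM in control, 2.69, 4.96 and 4.08 in OIM, and 15.7, 13.6 and 15.4 in bFGF. Its direction was thus opposite to that of the other ligands below, and bFGF exceeded control by 1.20 (SE 0.14, adjusted p = 2.95e-07). BMP6, a ligand also known for its control of iron handling, was an OIM-high gene with 2.37, 2.43 and 3.31 CPM in control, 5.85, 4.99 and 6.04 in OIM, and 2.8, 3.58 and 2.27 in bFGF. Its bFGF and control libraries overlapped, and the difference was 0.09 with an interval from -0.30 to 0.48, which puts it back near control.

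GDF6 measured 43.2, 39.1 and 37.3 CPM in control, 59.9, 53.2 and 60.9 in OIM, and 29.1, 30.3 and 28.9 in bFGF. All bFGF libraries lay below all control libraries, but the log2 fold change of -0.44 (SE 0.06, adjusted p = 4.58e-06) was short of the 0.5 needed for a call. BMP3, an atypical ligand that restrains BMP signalling, went from 10.8, 11.4 and 10.6 CPM to 23.6, 14.1 and 21.7 and then to 1.73, 1.4 and 1.29, a log2 fold change of -2.89 from control. GDF7, at 1.06 to 1.27 CPM in control, was undecided at -0.61 (interval -1.32 to 0.09). Over the 22 BMP pathway genes tested, 5 were called above control in bFGF (background 18.9%) and 8 below it (background 20.0%), with a median of -0.31.

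Wnt regulators were split in the same way. WIF1, a secreted protein that binds and inhibits Wnt ligands, was an OIM-low gene on chromosome 5 from 29450442 to 29543913. It measured 21.2, 19.9 and 21 CPM in control, 9.37, 10.3 and 9.42 in OIM, and 32.9, 30.4 and 34.4 in bFGF. All groups were separate, and bFGF lay above control by 0.65 (SE 0.07, adjusted p = 6.32e-08). The secreted frizzled-related proteins, which also bind Wnt ligands, had the opposite order of groups. SFRP4 measured 13.6, 14.4 and 13.3 CPM in control, 20.8, 18.1 and 20.4 in OIM, and 10.9, 13 and 12.6 in bFGF, and ended at -0.18 from control (interval -0.36 to 0.00). SFRP5 ended well below control at -2.34 (SE 0.16). FRZB was near 1 CPM, with 0.44, 1.01 and 0.603 in control, 1.49, 1.14 and 1.49 in OIM, and 0.895, 0.346 and 0.731 in bFGF, and its place was undecided at -0.06 (interval -0.90 to 0.78).

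Other Wnt components among the OIM-high genes were PORCN, the acyltransferase that modifies Wnt ligands for secretion, the ligand WNT16 and the receptor ROR1. PORCN, with 15.7 to 16 CPM in control and 13.2 to 14.3 in bFGF, was back near control at -0.21, WNT16 was undecided at -0.16, and ROR1 was called below control at -0.67. In the list of 24 Wnt pathway genes tested, 8 were called above control in bFGF and 7 below it, with a median of 0.13 (background 18.9% and 20.0%).

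**Figure D5:**
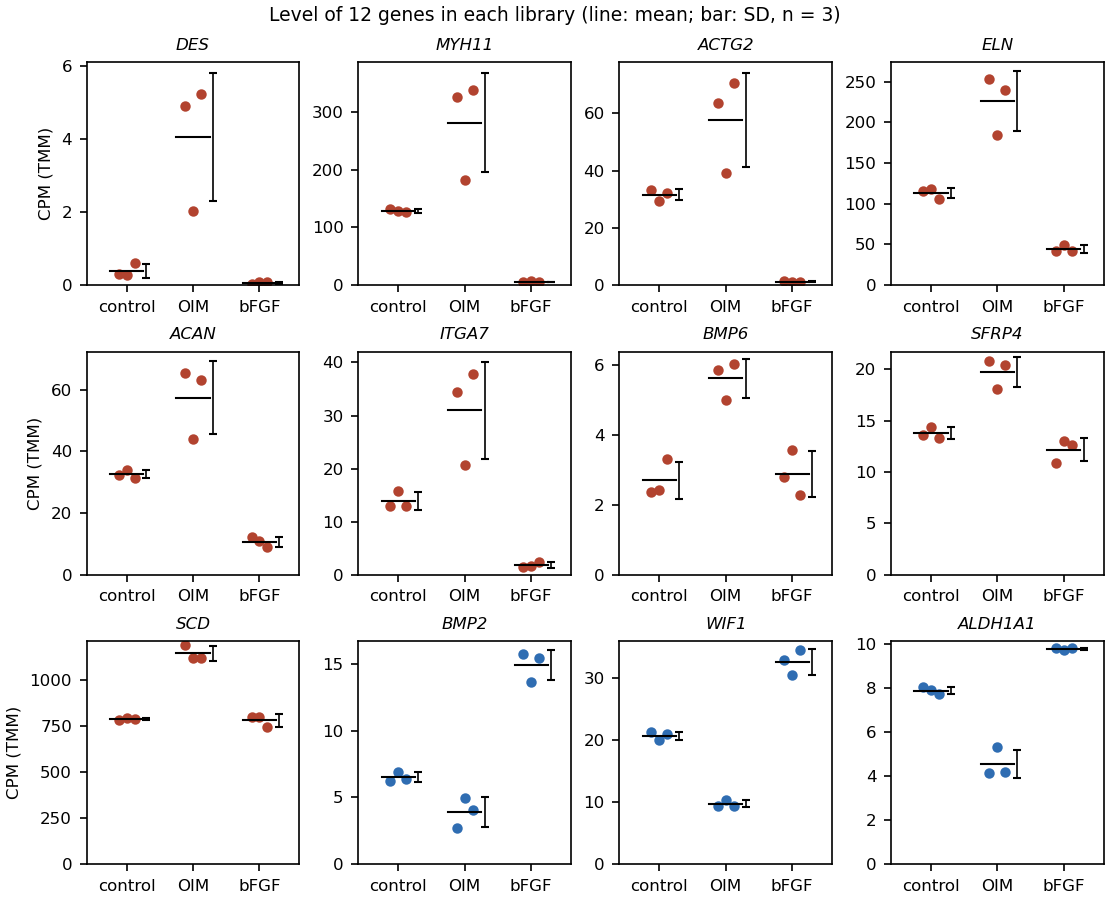
CPM of 12 genes in each library (points), with the group mean (line) and SD (bar, n = 3), red for OIM-high and blue for OIM-low genes, each panel with its own axis from 0. The bFGF points lie below control in DES, MYH11, ACTG2, ELN, ACAN and ITGA7, near it in BMP6, SFRP4 and SCD, and above it in BMP2, WIF1 and ALDH1A1.

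Receptors and guidance molecules also stood among the OIM-high genes, by roles assigned after the values were seen. EPHB6, an Eph receptor without kinase activity, measured 20.5, 23.4 and 19.1 CPM in control, 41.7, 32 and 39 in OIM, and 1.32, 1.08 and 0.885 in bFGF, with a log2 fold change of -4.26 from control (SE 0.14, adjusted p = 8.84e-16). SLIT3, a secreted guidance ligand, measured 35.7, 35.8 and 34.2 CPM in control, 68.8, 49.1 and 62.6 in OIM, and 9.64, 9.13 and 10.6 in bFGF, and lay at -1.85 (SE 0.10). These 2 were the members among 30 axon guidance genes tested (6.67%, against 1.03% of all genes tested). Of the 30, 8 were called above control in bFGF (background 18.9%) and 11 below it (background 20.0%). RELN, the extracellular guidance protein reelin, had 1.45, 1.53 and 1.22 CPM in control, 5.13, 4.39 and 3.85 in OIM, and 0.466, 0.634 and 0.115 in bFGF. ANOS1, a secreted protein of neuronal migration, was similar in shape, but its call below control was marginal (-1.17, SE 0.51, adjusted p = 0.0471) and was lost in most of the alternative settings.

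F3, tissue factor, the trigger of coagulation, was the single member among 16 YAP and TEAD targets tested (6.25%, against 1.03% of all genes tested). It measured 30.4, 28.7 and 29.2 CPM in control, 59.4, 35.7 and 64.3 in OIM, and 1.73, 2.67 and 1.65 in bFGF, and its log2 fold change from control was -3.86 (SE 0.20, adjusted p = 6.21e-13). OIM replicate 2 was again nearest to control. The receptors UTS2R (urotensin II), HTR1D (serotonin), GABBR2 (GABA) and GPR35 were called below control at -3.58, -2.40, -0.80 and -0.78. GABBR2 was among the 12 OIM-high genes with the largest smaller step, with 8.44, 9.02 and 7.92 CPM in control, 24.5, 19.8 and 19.5 in OIM, and 4.55, 5.79 and 4.29 in bFGF. Of further genes with large steps in both directions, GGT5, a gamma-glutamyl transferase family enzyme, and SEZ6L were called below control at -1.09 and -2.33, and ITIH4, an inter-alpha-trypsin inhibitor heavy chain, at -2.73. UNC13C, a synaptic vesicle priming protein, was called below control at -1.28, and RASGRF2, a Ras exchange factor, was undecided at -0.45. The orphan nuclear receptor NR4A3 was called below control at -2.14.

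Genes that bFGF brought back near control included the most abundant of all. SCD, stearoyl-CoA desaturase, which makes monounsaturated fatty acids, lies on chromosome 14 from 111461560 to 111478033. Its libraries spanned 784 to 795 CPM in control and 744 to 801 in bFGF, while the OIM mean was 1.45 times the control mean. The bFGF and control groups overlapped, and the difference of -0.02 had an interval from -0.09 to 0.06. RGS2, a regulator of G protein signalling, was the single member among 15 glucocorticoid-responsive genes tested (6.67%, against 1.03% of all genes tested). It measured 28.3, 29.5 and 30.6 CPM in control, 45.8, 48 and 43 in OIM, and 32.1, 31.6 and 31.3 in bFGF. It ended 0.10 above control (interval -0.02 to 0.22). PELI2, a ubiquitin ligase of innate signalling, RHOBTB2, ABHD10, LSP1, SUSD1, KCNG1 and DNAH17 were also within 0.5 of control. RHOBTB2 nevertheless stayed below it, with 24.2 to 25.3 CPM in control and 21.2 to 22.2 in bFGF (difference -0.18, interval -0.30 to -0.06). The OIM-high genes with the highest bFGF minus control values were MCAM at 0.38, MYO5B at 0.32 and MFAP2, and none of the 3 was called.

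The OIM-low genes included ALDH1A1, ALDH1A3 and LPL, which encode metabolic enzymes. ALDH1A1, which makes retinoic acid from retinal, measured 8.02, 7.9 and 7.7 CPM in control, 4.15, 5.3 and 4.2 in OIM, and 9.81, 9.73 and 9.79 in bFGF. Its libraries were separate in all groups, and it ended above control by 0.31 (interval 0.09 to 0.54). ALDH1A3, with the same activity, measured 18.8, 21.3 and 19.2 CPM in control, 13.5, 14.2 and 13.7 in OIM, and 20.9, 22.8 and 26.8 in bFGF, and was within 0.5 of control. LPL, lipoprotein lipase, measured 2.72, 2.33 and 2.68 CPM in control, 1.99, 1.34 and 1.26 in OIM, and 5.74, 5.67 and 4.17 in bFGF. It was called above control at 1.01 (SE 0.19, adjusted p = 8.24e-05), and with SCD it was 1 of 2 members among 28 lipid handling genes tested (7.14%, against 1.03% of all genes tested). LPL is also known from adipocytes, whose markers summed to 2.91 to 3.74 CPM in control, 2.09 to 2.64 in OIM and 0.173 to 0.448 in bFGF. The sum was mainly CIDEC in control and OIM, at 2.14 to 3.32 CPM in control, 1.22 to 1.55 in OIM and 0.0577 to 0.0746 in bFGF. LEP had another order, at 0.165 to 0.512 CPM in control, 0.543 to 0.998 in OIM and 0.0187 to 0.0769 in bFGF, and the PLIN1 libraries of control and OIM overlapped. The part of these markers in the LPL values was not tested.

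CLSTN2 and CHRNA9 were among the OIM-low genes that went furthest above control. CLSTN2, a calsyntenin of the cadherin superfamily, went from 2.72, 2.9 and 1.82 CPM in control to 1.4, 1.73 and 1.33 in OIM and 27.2, 22.6 and 25.9 in bFGF, a log2 fold change of 3.35 from control (SE 0.14, adjusted p = 3.19e-14). CHRNA9, a nicotinic receptor subunit, was close to the detection limit without bFGF. Its OIM libraries held 1, 6 and 4 counts, and those of CLVS2 held 4, 5 and 2, so the OIM ratios of both carry large counting error. In bFGF both genes reached 57 to 113 counts. PTCHD1, a membrane protein with a patched domain, was brought back near control, with 3.12, 2.71 and 2.43 CPM in control, 1.13, 1.06 and 1.33 in OIM, and 2.65, 2.36 and 3.52 in bFGF (difference 0.05, interval -0.38 to 0.47). COLGALT2, a collagen galactosyltransferase, was undecided at 0.15. DCHS2, a large protocadherin, and GPX3, a secreted glutathione peroxidase, were called above control at 1.45 and 0.98.

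A peptide and a receptor subunit of 1 signalling family were both OIM-low. CALCB, which encodes a calcitonin gene-related peptide, measured 1.52, 1.72 and 1.71 CPM in control, 1.2, 0.721 and 0.875 in OIM, and 4.72, 3.56 and 3.91 in bFGF, and was called above control at 1.30 (SE 0.21, adjusted p = 1.72e-05). CALCRL, the receptor for that peptide and for adrenomedullin, measured 5.58, 6.43 and 6.23 CPM in control, 2.75, 3.53 and 3.73 in OIM, and 8.82, 6.63 and 7.35 in bFGF. Its difference of 0.32 (interval 0.03 to 0.61) was not a call. CALCRL is also abundant in endothelial cells. Of the endothelial sums given above, ERG alone made up 51.2 to 52 CPM in control, 66.2 to 67.8 in OIM and 133.8 to 143.2 in bFGF. The other 9 markers summed to 21.3 to 24.4 CPM in control, 21.1 to 23.4 in OIM and 36.6 to 39.1 in bFGF. ERG and this sum were thus both highest in bFGF. PECAM1 was the largest part of the sum, with 12.3 to 13.9 CPM in control and 19.6 to 21.7 in bFGF, while VWF went the other way. The part of these markers in the CALCRL values was not tested.

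The most abundant OIM-low genes were ECM1 and SLC5A3. ECM1, extracellular matrix protein 1, measured 233, 267 and 240 CPM in control, 117, 146 and 116 in OIM, and 222, 212 and 217 in bFGF. It was the OIM-low gene whose bFGF libraries all lay below control, by -0.18 (interval -0.32 to -0.04), and so within 0.5 of it. SLC5A3, a myo-inositol transporter, measured 192, 170 and 166 CPM in control, 118, 132 and 125 in OIM, and 251, 244 and 242 in bFGF, at 0.48 from control (SE 0.05). Both genes overlap another gene on the same strand, TARS2 and MRPS6, so some reads could belong to the neighbour. CLEC2D, a lectin-like receptor ligand, was called above control at 0.53, and the lowest OIM-low genes relative to control were RGS7BP at -0.34 and TRPA1 at -0.23, both undecided.

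The classic mineralization genes were not among the 141. None of the 18 mineralization genes tested was a member, and with 1.03% of all genes tested being members a list of this size need not hold any. SPP1 (osteopontin) had an OIM over control ratio of 0.996 and a bFGF over OIM ratio of 0.275, RUNX2 had 1.19 and 0.921, and CAT had 0.905 and 1.13. BGLAP (osteocalcin) was higher at each step, with ratios of 1.68 and 2.11, and IBSP was too low to be tested. By qPCR, another measure than these counts, the study reported BGLAP and RUNX2 lower in bFGF than in OIM. By western blot it reported osteopontin and RUNX2 protein raised by OIM and lowered with bFGF. It also named SPP1 among the transcripts raised by bFGF, where the ratio here was 0.275. Of the other genes the study names for these treatments, SIPA1L1, SUN2, MVP, TOMM40, LPP, ATF4, ITGA2, S100A2, APP and ZEB2, none was a member. Lists of TGF-beta, Notch, ERK feedback, insulin and FOXO, IGF, glycolysis, sterol synthesis, cell cycle, cytokine, interferon, vasoactive receptor and ATF4 genes, of 11 to 35 genes tested each, also held 0 members, which at that background sets none of them apart from other genes. That count depends on the lists, since the receptor list left out UTS2R, HTR1D, GABBR2 or CALCRL, which are receptors of that kind and were picked. In the cell cycle list, for example, 26 of 28 genes were called higher in bFGF than in control (background 18.9%).

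The 141 genes lay on many chromosomes. Chromosome 16, named after its values were seen, had the highest shares of the chromosomes, with 6 OIM-high and 3 OIM-low genes of its 256 tested (2.34% and 1.17%, against 0.739% and 0.293% of all genes tested). The median gene span was 34120 bases in the 99 OIM-high and 65110 bases in the 39 OIM-low genes placed, against 27740 bases over all genes tested. Spans over 100 kb made up 29.3% and 30.8%, against 17.7%. Within 1 Mb of each other lay 10 neighbouring pairs. HSPB7 and FAM131C, 18478 bases apart on chromosome 6, belonged to opposite classes, with FAM131C called above control at 1.80. ADAM19 and NIPAL4 overlap on opposite strands of chromosome 16, and reads in the overlap cannot be assigned if strand was ignored. Among 6179 circular RNAs counted in the same libraries, 8 lay within 5 of these genes, and 0 of the 8 reached 10 junction reads over all libraries, so circular forms of these genes were not measurable at this depth.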

How the data were processed

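RNA from PVICs under 3 treatments was sequenced in 3 libraries per group, grouped by the sample labels. The authors trimmed reads with Cutadapt and aligned them to Sscrofa11.1 (susScr11) with STAR, while the processing notes in the labels name Trimmomatic, HISAT2 and StringTie. The counting program and its use of strand are not given in the sources used here. The labels name a stranded kit with ribosomal RNA removal and the study's methods a poly-A kit. The deposited table holds expected counts that are not normalized. Its 19535 gene rows were whole-number counts as deposited, and its 9888 non-coding rows were not used. A further 19 columns had no name and were not used. The 6179 circRNA rows were used only for junction counts as deposited.

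Counts were analysed with edgeR 4.0.16 in R 4.3.3 (filterByExpr, TMM, quasi-likelihood fit on 3 groups, 6 residual degrees of freedom), with Benjamini-Hochberg adjustment over 13662 genes. Standard errors were derived from the F statistic (the log2 change over the root of F), and intervals are 95%. The script was tested on simulated data. DESeq2 1.42.0, other scalings, filters, ratio limits, a replicate block and leaving out each library were alternatives. Samples with the same replicate number did not deviate together, with correlations close to 0, so the fit had no block. Promoters were read from RefSeq annotation release 106 with Python 3.11.15.

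The genes, the lists and the tests were chosen with earlier results of these data known. Named genes are, in each class, the 12 with the largest smaller step, all members of a list, the 3 nearest to the limits on each side, the 3 highest and 3 lowest for bFGF minus control and the 5 most abundant. Other genes were named after their values were seen. Unnamed loci are counted but not named, and some genes that the rule selects are not reported here. Polyadenylation was left out, since these counts are per gene and not per transcript end.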

Additional observations from a re-analysis of the deposited data

How the results depend on the processing

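The number of genes picked depended on the limits. OIM-high genes numbered 183 with the ratio limits loosened to 0.8 and its inverse, 23 with limits of 2 and 0.5 and 62 with at least 5 CPM, against 101. OIM-low genes numbered 88, 6 and 19 under the same settings and 71 when libraries could overlap, against 40. Leaving out each library in turn gave 95 to 154 OIM-high and 40 to 89 OIM-low genes, with 74 of the 101 and 23 of the 40 picked in all 9 cases. The highest counts came without OIM replicate 2. Leaving out OIM replicate 1 or 3, which also leaves 2 libraries, gave 95 and 99 OIM-high and 40 and 49 OIM-low genes. The cause was not tested.

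Calls against control moved less. OIM-high genes called below control numbered 64 to 67 and OIM-low genes called above control 19 to 23 when each library was left out. With library totals alone, which moved the median of all genes to 0.21 and the share of higher calls from 48.5% to 68.1%, the counts were 57 and 27. The number of OIM-high genes called above control was 1 with library totals alone, 2 with no fold limit and 0 to 1 when each library was left out, and the number of OIM-low genes called below control was 1 with no fold limit and 0 to 0 in the latter cases. With the replicate block, the counts were 66 and 22, and the replicate numbers do not pair the samples, with same-number correlations from -0.032 to 0.0035. Library totals alone raise every bFGF minus control value by about the same amount, so genes near 0 change sign with it. Of the 24 genes recomputed under every setting, the direction of bFGF minus control reversed for PCP4 with library totals alone (0.049) and without bFGF replicate 3 (0.022), for ECM1 with library totals alone (0.043), and for PTCHD1 without control replicate 3 (-0.034) and without bFGF replicate 3 (-0.13). When each library was left out, PCP4 ranged from -0.32 to 0.022 and PTCHD1 from -0.13 to 0.16. None of these was a call, and the cause was not tested. Over the 24 genes and all alternative settings, a call absent from the main fit appeared in 6 cases and a call was lost in 10. The adjusted p of ANOS1 was 0.055 to 0.19 in 10 settings. Values under 1 CPM rest on few counts, and counting error limits them most.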
